A study of Mus musculus with 10 samples.

Results

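The genes described here encode 9 trans-synaptic adhesion proteins of 3 families: the neurexins Nrxn2 and Nrxn3, the neuroligins Nlgn1, Nlgn2 and Nlgn3, and the leucine-rich repeat transmembrane proteins Lrrtm1, Lrrtm2, Lrrtm3 and Lrrtm4. They were found by matching the Ensembl identifiers of the count table, without their version numbers, to these 9 symbols, and all 9 were present among 56884 gene entries. Each of the 9 passed edgeR's filter on low counts, which left 17622 genes for testing. RNA was sequenced in bulk from the hippocampus of 10 ovary-intact female P301S (PS19) mice, which carry human 1N4R Tau with the P301S mutation under the mouse Prnp promoter on a mixed B6;C3 background. At 6 months of age 5 mice received a 10 mm subcutaneous implant of dihydrotestosterone (DHT), an androgen that aromatase cannot convert to estrogen, and 5 received an empty (void) implant. Littermates were randomized to treatment, and tissue was taken after 12 weeks, at 9 to 9.5 months. All 10 mice carried the transgene, so the comparison is of DHT against void within tauopathy and includes no mouse without mutant Tau.

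Neurexins sit in the presynaptic membrane and act as receptors that reach across the synaptic cleft. Neuroligins and LRRTMs sit in the postsynaptic membrane and bind them there, and each pairing helps to set the kind and strength of a synapse. In the hippocampus, Nlgn1 and the LRRTMs are known mainly from excitatory synapses, Nlgn2 from inhibitory synapses, and Nlgn3 from both.

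No member differed between DHT-treated and void-treated females at an adjusted p under 0.05. By the quasi-likelihood test of edgeR, with Benjamini-Hochberg adjustment over all genes, 0 of 9 members were called in either direction, against 5.48% of all genes tested. With a log2 fold change beyond 1 required as well, 0 members were called, against 2.17% of all genes higher and 0.0227% lower. At an unadjusted p under 0.05 there was 1 member, Lrrtm3, against 17.4% of all genes. DESeq2 called the same 1 gene at an adjusted p under 0.05, and the share of all genes that it called is not given here. For 0 of the 9 members did the DHT and void mice fall into ranges that did not overlap, which was the case for 6.27% of all genes. The log2 fold change (DHT minus void) was negative for 8 of 9 members, with a median of -0.10, whereas 47.6% of all genes had a negative value and their median was 0.01. The lean was not particular to the members, as 10 of 10 neuron markers were negative, with a median of -0.13. Of 7 inhibitory neuron markers 6 were negative (median -0.12), and of 7 excitatory neuron markers 3 were (median 0.0025). Scaling on 10 neuron marker genes raised the median of all genes to 0.16 and that of the members to 0.04, with 2 of 9 members negative. Under either scaling 8 of 9 lay below the median of all genes, with a gap of -0.11 between the medians. A change of scaling shifts all genes nearly alike, so it could hardly have altered this gap. With the neuron markers as a covariate 6 of 9 lay below, with a gap of -0.11. With offsets for GC content and length 8 of 9 did, with a gap of -0.06.

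**Figure D1:**
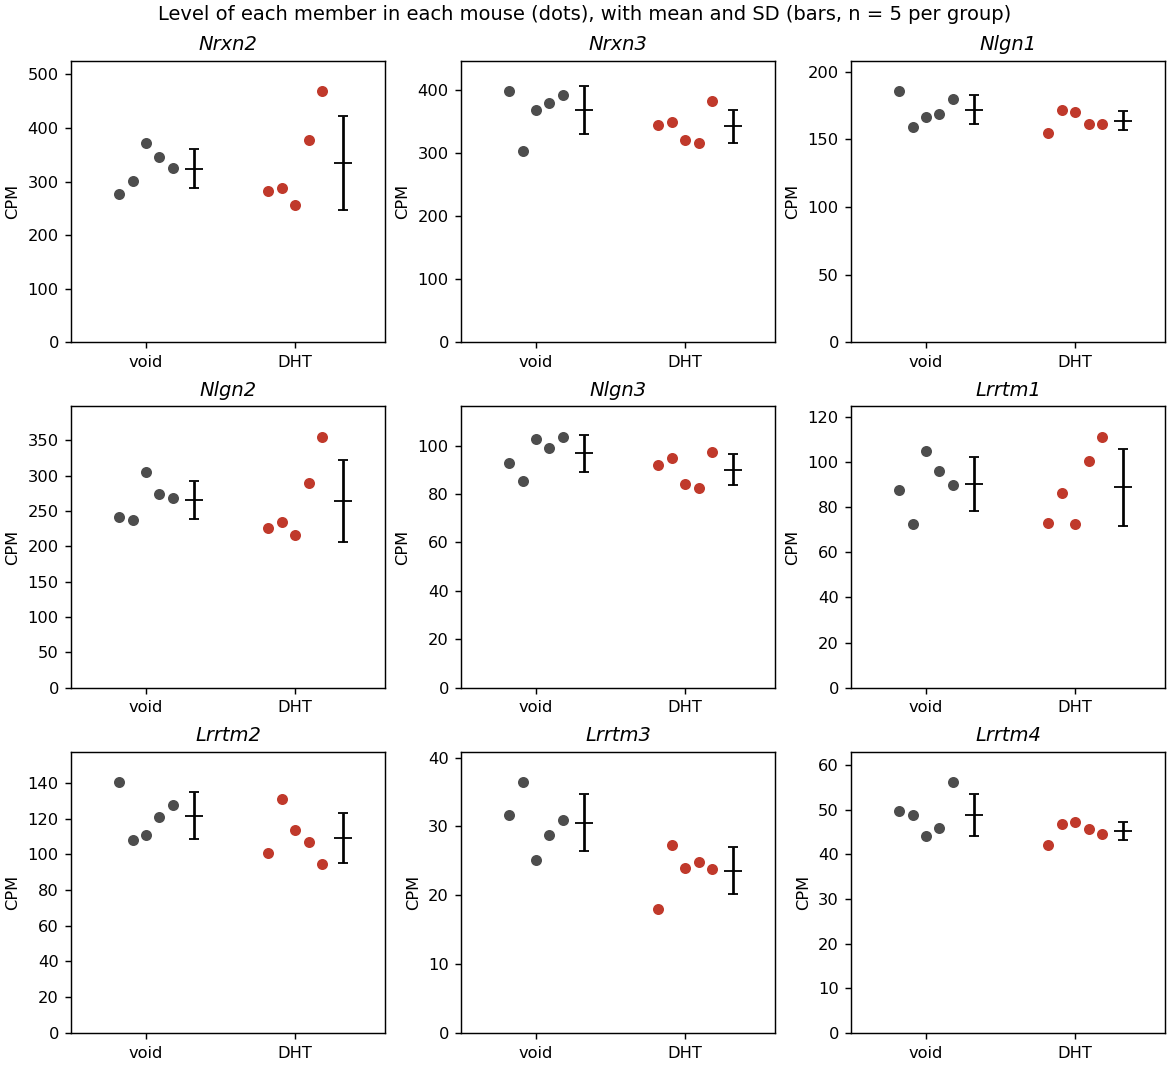
Level of each of the 9 genes in CPM (counts scaled to a common library size, vertical axes from 0) in 5 void and 5 DHT mice, with 1 dot per mouse in the order of the replicate numbers and the group mean and SD beside the dots. The dots of the groups overlap in every panel, and Lrrtm3 is the gene in which 4 of 5 DHT mice lie below the lowest void mouse.

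In the order of their levels, the 9 genes spanned a range from Nlgn2 at the top to Lrrtm3 at the bottom. Levels between genes are given as CPM per kilobase of annotated exon, as the mean over all 10 mice with the SD. The annotated exons of Nrxn2 and Nrxn3 cover 13812 and 12605 bases, but their longest transcripts hold only 6667 and 7922. For Nlgn2 these lengths are 5785 and 5568. The place of the neurexins in the order, relative to Nlgn2 and to each other, therefore depends on the length used. Nlgn2 was highest at 45.8 ± 7.44 CPM per kilobase (SD, n = 10) and lay above Lrrtm1, at 29.6 ± 4.59, in 10 of 10 mice. From Lrrtm1 through Nrxn3 (28.1 ± 2.68) and Nrxn2 (23.8 ± 4.62) to Lrrtm2 (19.2 ± 2.38), each gene overlapped with the next in the order, and Lrrtm1 was above Nrxn3 in only 5 of 10 mice. Lrrtm2 lay above Nlgn1 (12.5 ± 0.711 CPM per kilobase), and Nlgn1 above Nlgn3 (10.1 ± 0.823), with no overlap of their ranges. At the low end, Lrrtm4 (7.66 ± 0.632 CPM per kilobase) and Lrrtm3 (6.37 ± 1.21) overlapped, as did Nlgn3 and Lrrtm4.

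The make-up of each family is given as a description, without a test, and depends on the same exon lengths. Nlgn2 accounted for 66.3% ± 2.03 of the summed per-kilobase level of the 3 neuroligins in void mice and 67.1% ± 4.52 in DHT mice (SD, n = 5 each). Nlgn1 held 18.6% ± 1.76 and 18.4% ± 2.81, and Nlgn3 15.1% ± 0.457 and 14.6% ± 1.93. Among the LRRTMs, Lrrtm1 held 45.7% ± 4.57 with void and 48.3% ± 5.60 with DHT, while the share of Lrrtm3 was 11.1% ± 2.14 with void and 9.17% ± 0.832 with DHT. Nrxn3 took 55.4% ± 3.73 of the level of the 2 neurexins analysed here with void and 53.4% ± 5.42 with DHT.

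Nrxn2 and Nrxn3 encode presynaptic neurexins that organise release sites and recruit calcium channels. Nrxn2 was at 277, 301.2, 371, 345 and 325 CPM in void mice 4, 5, 9, 10 and 11, and at 282, 287, 257, 378 and 469 CPM in DHT mice 1, 2, 3, 5 and 6. The DHT mice took in both the lowest and the 2 highest values, and the groups overlapped. The log2 fold change of Nrxn2 was 0.05 (95% interval -0.28 to 0.38, edgeR, adjusted p = 0.929). Nrxn3 ranged from 303 to 398 CPM with void and from 315 to 382 CPM with DHT, with 4 of 5 DHT mice below the void median. Its log2 fold change was -0.11 (95% interval -0.28 to 0.07, edgeR, adjusted p = 0.575). The log2 ratio of Nrxn3 to Nrxn2 within each mouse, which does not depend on how libraries are scaled, was 0.18 ± 0.22 with void and 0.06 ± 0.31 with DHT (n = 5 each, SD). The difference of -0.12 lay within the SD of either group (exact permutation test, two-sided, p = 0.50).

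Nlgn1, Nlgn2 and Nlgn3 encode neuroligins, which bind neurexins and anchor receptors through scaffolds such as PSD-95 and gephyrin. Nlgn2, the neuroligin of inhibitory synapses, was at 242, 237, 305, 274 and 268 CPM in void mice 4, 5, 9, 10 and 11, and at 226, 235, 216, 290.1 and 355 CPM in DHT mice 1, 2, 3, 5 and 6. Again DHT mouse 6 was highest and DHT mouse 3 lowest, so that 3 of 5 DHT mice lay below and 1 above the whole void range. The log2 fold change of Nlgn2 was -0.01 (95% interval -0.29 to 0.28, edgeR, adjusted p = 0.992). Nlgn1, the neuroligin of excitatory synapses, ranged from 159 to 186 CPM with void and from 155 to 172 CPM with DHT. It had the narrowest interval of the 9 genes, with a log2 fold change of -0.07 (95% interval -0.19 to 0.05, edgeR, adjusted p = 0.603), which corresponds to a ratio of DHT to void between 0.875 and 1.04. Nlgn3 ranged from 85.3 to 104 CPM with void and from 82.4 to 97.2 CPM with DHT, and all 5 DHT mice were below the void median of 99.2 CPM. Its log2 fold change of -0.10 did not pass the test (95% interval -0.26 to 0.05, edgeR, adjusted p = 0.522). The balance of the excitatory to the inhibitory neuroligin, taken as the log2 ratio of Nlgn1 to Nlgn2 counts in each mouse, was -0.62 ± 0.18 with void and -0.67 ± 0.32 with DHT (n = 5 each, SD). The difference was -0.04 (two-sided exact permutation test, p = 0.817), between genes of 38.9% and 60.7% GC in their longest transcripts. Across the 3 ratios tested in all, the Benjamini-Hochberg adjusted p was 0.817 for each, and the smallest p that 5 mice against 5 allow is 0.00794.

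The 4 LRRTMs are postsynaptic leucine-rich repeat proteins that bind neurexins and, in part, heparan sulfate proteoglycans, and help to hold AMPA receptors at excitatory synapses. Lrrtm3 was at 31.6, 36.5, 25.2, 28.7 and 30.9 CPM in void mice 4, 5, 9, 10 and 11, and at 17.98, 27.2, 23.9, 24.9 and 23.9 CPM in DHT mice 1, 2, 3, 5 and 6. All 5 DHT mice were below the void median and 4 of them below the lowest void mouse, void mouse 9, while DHT mouse 2 lay within the void range. The group means were 30.6 ± 4.14 CPM with void and 23.6 ± 3.41 CPM with DHT (n = 5 each, SD). The log2 fold change of Lrrtm3 was -0.37 (standard error 0.12, 95% interval -0.63 to -0.12), or 0.771 of the void level, and edgeR gave an unadjusted p of 0.00778 and an adjusted p of 0.0948. It ranked 1446 of 17622 genes by p, and its size was below that of a change by a log2 value of 1. DESeq2 gave a log2 fold change of -0.40 with an adjusted p of 0.0250, and edgeR without void mouse 9 gave -0.44 with an adjusted p of 0.0440. Over the 19 alternatives run, all 19 values were negative, from -0.44 to -0.07, and Lrrtm3 was called in these 2, with adjusted p from 0.0250 to 0.972.

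Lrrtm1, Lrrtm2 and Lrrtm4 showed smaller differences. Lrrtm2 was at 141, 108, 111, 121 and 127 CPM in void mice 4, 5, 9, 10 and 11, and at 101, 131, 114, 107 and 94.7 CPM in DHT mice 1, 2, 3, 5 and 6. Although 3 of 5 DHT mice lay below the lowest void mouse, DHT mouse 2 had the second highest value of all 10 mice. The log2 fold change of Lrrtm2 was -0.15 (95% interval -0.36 to 0.06, edgeR, adjusted p = 0.482). Lrrtm4, a receptor partner of heparan sulfate proteoglycans in the dentate gyrus, ranged from 44.0 to 56.2 CPM with void and from 42.1 to 47.3 CPM with DHT. All 5 DHT mice were below the void median, and the log2 fold change was -0.11 (95% interval -0.26 to 0.04, edgeR, adjusted p = 0.486). Lrrtm1 was at 87.6, 72.8, 105, 96.2 and 90.0 CPM with void and at 73.3, 86.6, 72.5, 101 and 111 CPM with DHT, in the same order of mice. Its extremes were again DHT mice 3 and 6, and its log2 fold change was -0.02 (95% interval -0.31 to 0.26, edgeR, adjusted p = 0.961). The log2 ratio of Lrrtm1 to Lrrtm2 within each mouse was -0.43 ± 0.24 with void and -0.31 ± 0.38 with DHT (n = 5 each, SD), a difference of 0.12 (two-sided exact permutation test, p = 0.563).

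**Figure D2:**
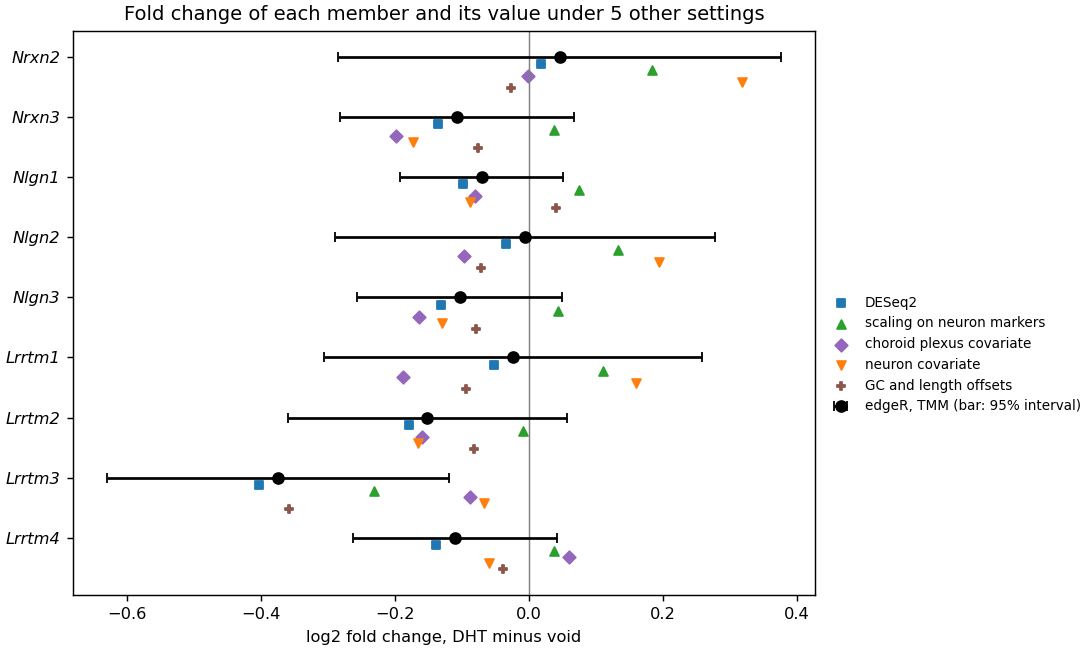
Log2 fold change (DHT minus void, horizontal axis) of each of the 9 genes by edgeR with its 95% interval (black), with the values from DESeq2, scaling on neuron markers, a choroid plexus or neuron covariate, and offsets for GC content and length (coloured symbols). The interval of Lrrtm3, -0.63 to -0.12, lies below 0, and with either covariate its value moves to -0.09 or -0.07.

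Transcripts of other brain cells also differed between the groups. The summed level of 12 choroid plexus markers (Ttr, Kl, Folr1 and others) was 361 to 3269 CPM in void mice and 3908 to 5742 CPM in DHT mice, with all 12 higher on average and 4 of 12 called. The summed level of 7 microglial markers was 411 to 481 CPM with void and 582 to 852 CPM with DHT, with 5 of 7 called. The summed level of 10 neuron markers was 7122 to 7987 CPM with void and 6233 to 7085 CPM with DHT, with 10 of 10 negative and 0 called. Some mice with extreme Lrrtm3 levels also stood at or near the ends of the choroid plexus and neuron sums. DHT mouse 1 had the lowest Lrrtm3 (17.98 CPM), the highest choroid plexus sum (5742 CPM) and the lowest neuron sum (6233 CPM). Void mouse 5 had the highest Lrrtm3 and the highest neuron sum. Of the void mice, void mouse 9 had the lowest Lrrtm3, the highest choroid plexus sum and the lowest neuron sum. Void mouse 4 did not follow this pattern, with the second highest Lrrtm3 (31.6 CPM). Its choroid plexus sum of 1720 CPM was above the void median of 930 CPM, and its neuron sum of 7199 CPM was below the void median of 7358 CPM. With the choroid plexus list as a covariate the log2 fold change of Lrrtm3 was -0.09 (standard error 0.16, edgeR, adjusted p = 0.972), and with the neuron list it was -0.07 (standard error 0.14, edgeR, adjusted p = 0.877). Each covariate was the mean log2 CPM of its list, not the sum. Neither the choroid plexus nor the neuron sum overlaps between the groups, and whether these means overlap is not given here. Each covariate and the treatment therefore cannot be taken as told apart, and the part of these cell types in the result was not tested. In bulk tissue, fewer cells of a type and less RNA per cell cannot be told apart. The summed levels of the excitatory neuron, inhibitory neuron, hippocampus, striatum and thalamus, astrocyte, oligodendrocyte, oligodendrocyte precursor and endothelial lists overlapped between the groups, and no marker was at 0 in all mice. The 8 hippocampal markers summed to 1080 to 1715 CPM over the 10 mice, and the 9 striatal and thalamic markers to 103 to 146 CPM. Total counts were 27188854 to 47113661 per library with void and 33523527 to 45947784 with DHT, which gave at least 658 counts for each of the 9 genes in each mouse. The S numbers in the sample titles, whose meaning the labels do not give, were all lower for void mice than for DHT mice. If they follow an order of libraries, treatment and that order cannot be told apart.

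**Figure D3:**
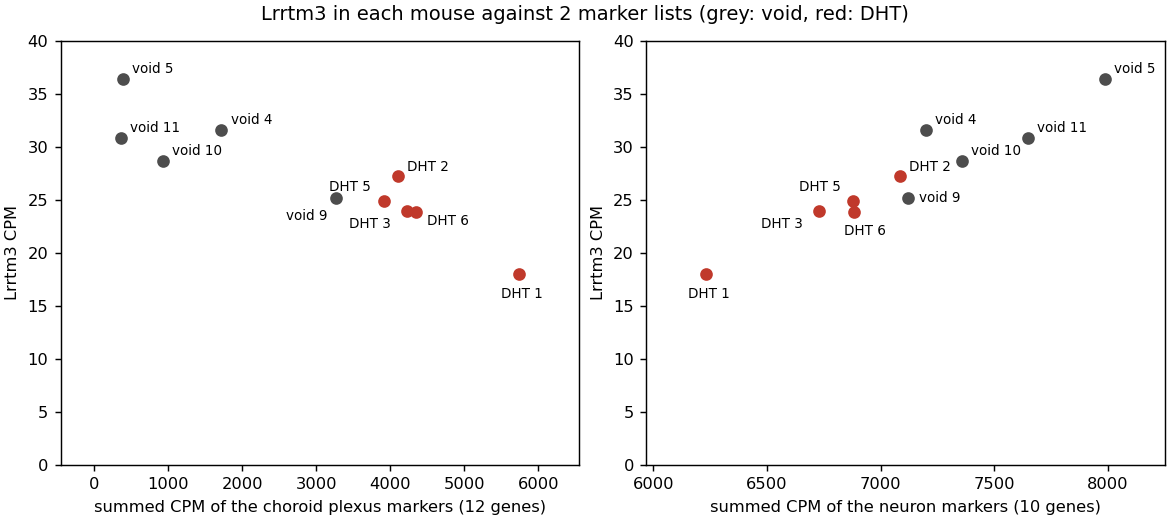
Lrrtm3 level (CPM, vertical axes from 0) in each mouse against the summed CPM of 12 choroid plexus markers (left) and of 10 neuron markers (right, axis not from 0), with void mice in grey and DHT mice in red. The 5 DHT mice lie at 3908 CPM or more on the left and at 7085 CPM or less on the right, and DHT mouse 1 has the lowest Lrrtm3 in both panels.

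The 3 of the 9 genes with the widest spread between mice were also the 3 with the highest GC content. The longest transcripts of Nrxn2, Nlgn2 and Lrrtm1 were 62.4%, 60.7% and 54.7% GC, and the SD of their log2 CPM within groups was 0.280, 0.237 and 0.239. The other 6 genes did not follow GC content in the same order. Nlgn1 and Lrrtm4, at 38.9% and 38.4% GC, had SDs of 0.0767 and 0.106, but Lrrtm2, also at 38.4% GC, had an SD of 0.167, and Nlgn3, at 49.3% GC, one of 0.112. Nrxn3 (47.5% GC) and Lrrtm3 (44.5% GC) had SDs of 0.136 and 0.211, and all genes tested had a median of 49.4% GC and 0.185. All 3 GC-rich genes were highest in DHT mouse 6 and lowest in DHT mouse 3. With offsets for GC content and length, an alternative chosen after seeing the data, the standard error of Nrxn2 fell from 0.152 to 0.0416 and that of Nlgn2 from 0.130 to 0.0381. Under these offsets the log2 fold changes were -0.03 for Nrxn2 and -0.07 for Nlgn2 (edgeR, adjusted p = 0.749 and 0.285), and 0 of 9 members were called. For Nlgn1 the log2 fold change was then 0.04 (edgeR, adjusted p = 0.747), above that of Nlgn2, the reverse of the order without offsets, so the sign of the DHT minus void difference between these 2 genes changes with the offsets.

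**Figure D4:**
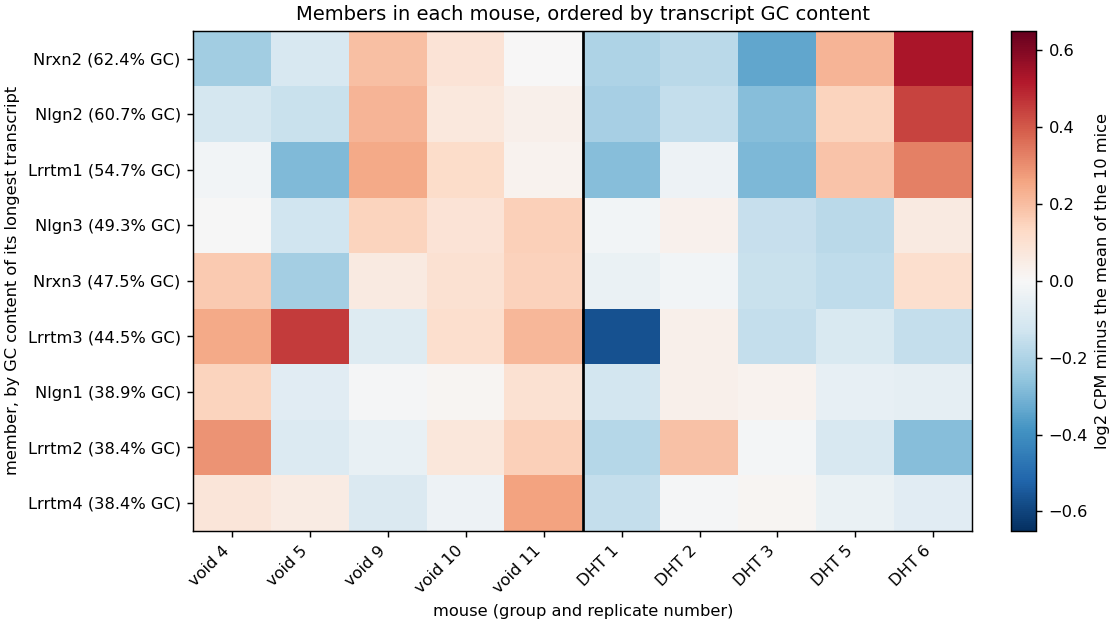
Log2 CPM of each of the 9 genes (vertical axis, ordered by the GC content of the longest transcript) minus its mean over the 10 mice, by mouse (horizontal axis, void left and DHT right of the line). Nrxn2, Nlgn2 and Lrrtm1, at 62.4%, 60.7% and 54.7% GC, share a column pattern with the highest values in DHT mouse 6, and DHT mouse 1 is lowest for Lrrtm3.

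Patterns over the 10 mice were compared for the gene of each family with the highest level per kilobase of annotated exon. For each, the tested gene with the most similar pattern was found after each group's mean was taken off. Nlgn2 was most like Ajm1 (Pearson r = 0.996, Spearman rho = 0.952, and r = 0.989 without the 2 mice farthest from the median). As many as 1108 of 17622 genes had r above 0.9 with Nlgn2, so a high value was common. Lrrtm1 was most like Cpne6, a copine of hippocampal neurons (r = 0.991, rho = 0.952, r = 0.984 without 2 mice), with 693 genes above 0.9. Nrxn3 was most like Sorl1, a sorting receptor for APP (r = 0.973, rho = 0.939, r = 0.940 without 2 mice), with 66 genes above 0.9. These values are a description over 10 libraries that share their depth and base composition between the genes compared.

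Lrrtm1, Lrrtm2 and Lrrtm3 each lie inside an alpha-catenin gene, on the opposite strand, which is Ctnna2 for Lrrtm1 (chromosome 6), Ctnna1 for Lrrtm2 and Ctnna3 for Lrrtm3 (chromosome 10). Ctnna1, a link between cadherins and actin in many cell types, was at 72.6 ± 5.73 CPM with void and 101 ± 10.8 CPM with DHT (n = 5 each, SD), and all 5 DHT mice were above all void mice. Ctnna1 changed by 0.47 on the log2 scale (standard error 0.08, edgeR, adjusted p = 0.00941), the opposite sign to that of Lrrtm2, with which it shares 95 exon bases, and with the choroid plexus covariate it was 0.27 (adjusted p = 0.673). Ctnna2, the neuronal alpha-catenin, ranged from 129 to 137 CPM with void and from 117 to 128 CPM with DHT, without overlap, but its log2 fold change of -0.11 was not called (edgeR, adjusted p = 0.233). Ctnna3 was near the bottom of the range at 3.26 ± 0.643 and 3.38 ± 0.307 CPM (log2 fold change 0.06, edgeR, adjusted p = 0.90) and shares no exon bases with Lrrtm3. The handling of strand in the counting is not given in the sources used here, so reads over shared bases could be split or lost. Nlgn3, on chromosome X, shares 3823 exon bases with Gm21986 on the same strand, which held 5 to 22 counts per mouse. Shared exon bases with an opposite-strand gene numbered 1229 for Nlgn1 (chromosome 3), 889 for Nrxn2 (chromosome 19), 439 for Nrxn3 (chromosome 12) and 1543 for Lrrtm4 (chromosome 6), and 0 for Nlgn2 (chromosome 11).

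Promoters were read from RefSeq (GRCm38.p6) because the study relates DHT to TR4, a nuclear receptor, and to the androgen receptor. The windows ran from 250 bases before to 50 bases after each start, and 10 windows of 6 members, Nrxn3, Nlgn1, Nlgn2, Lrrtm1, Lrrtm3 and Lrrtm4, were searched on both strands. The nuclear receptor core motif AGGTCA (or TGACCT) was in 0 of 10 windows, and in 16.3% of 32851 promoters of the same length. The androgen receptor core motif AGAACA (or TGTTCT) was in 2 of 10, 1 each of Nlgn2 and Nrxn3, and in 18.97% of all promoters. The 250 bases before the start are shown for Lrrtm3, the member with the lowest p (minus strand, chr10:64090256-64090505). They are also shown for Nlgn2, the highest per kilobase of annotated exon (minus strand, chr11:69837785-69838034). Both run 5′ to 3′ in the direction of the gene, with a core motif in capitals.
Lrrtm3: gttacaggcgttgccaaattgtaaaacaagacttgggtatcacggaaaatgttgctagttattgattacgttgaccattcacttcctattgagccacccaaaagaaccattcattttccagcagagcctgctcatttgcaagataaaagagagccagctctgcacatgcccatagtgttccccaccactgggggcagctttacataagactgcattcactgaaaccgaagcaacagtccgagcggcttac
Nlgn2: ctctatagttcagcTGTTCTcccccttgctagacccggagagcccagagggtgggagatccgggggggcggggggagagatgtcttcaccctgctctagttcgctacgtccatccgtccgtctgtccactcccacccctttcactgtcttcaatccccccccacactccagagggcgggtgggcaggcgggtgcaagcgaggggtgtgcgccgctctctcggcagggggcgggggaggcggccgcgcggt
The Lrrtm3 window held neither core motif and was 48.7% GC, and the Nlgn2 window held 1 TGTTCT and was 68.7% GC. A match in such a window is a description of its letters and no measure of binding.

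Other genes of neurexin and neuroligin adhesion were read from the same fit. Of 77 partner genes, all tested, 1 was called lower with DHT, against 0.261% of all genes, and 0 were called higher, against 5.22%. Negative log2 fold changes were found for 63 of 77, with a median of -0.09 beside 0.01 for all genes. At an unadjusted p under 0.05, 10 were lower, against 4.22% of all genes, and 1 was higher, against 2316 of all 17622 genes. DESeq2 called 3, all lower, and the share of all genes that it called is not given here. The groups did not overlap for 3 of 77, Il1rapl1, Cadm1 and Ntng1, each lower with DHT, as was the case for 0.88% of all genes. Cadm1 and Ntng1 had adjusted p values of 0.148 and 0.157 (edgeR) and were named after their values were seen.

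The partner gene that fell was Il1rapl1, a postsynaptic adhesion protein that binds the presynaptic phosphatase PTPRD. It was at 29.3, 27.7, 24.1, 25.98 and 30.6 CPM in void mice 4, 5, 9, 10 and 11, and at 21.3, 22.8, 21.8, 21.0 and 17.4 CPM in DHT mice 1, 2, 3, 5 and 6. All 5 DHT mice were below all 5 void mice, by the least margin between DHT mouse 2 and void mouse 9. The log2 fold change was -0.40 (standard error 0.09, edgeR's quasi-likelihood test, adjusted p = 0.0222). Leaving out void mouse 4, void mouse 11 or DHT mouse 1 left values of -0.38, -0.39 and -0.44 with adjusted p of 0.0646, 0.0618 and 0.0509 (edgeR). With the choroid plexus covariate the value of Il1rapl1 was -0.26 (edgeR, unadjusted p = 0.0830, adjusted p = 0.760). With the neuron covariate it was -0.43, no smaller than without it (edgeR, unadjusted p = 0.00982, adjusted p = 0.658). Ctnna1 had the same adjusted p in that fit, so the loss of the call there is not particular to Il1rapl1. With scaling on neuron markers the value was -0.25 (edgeR, adjusted p = 0.125).

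**Figure D5:**
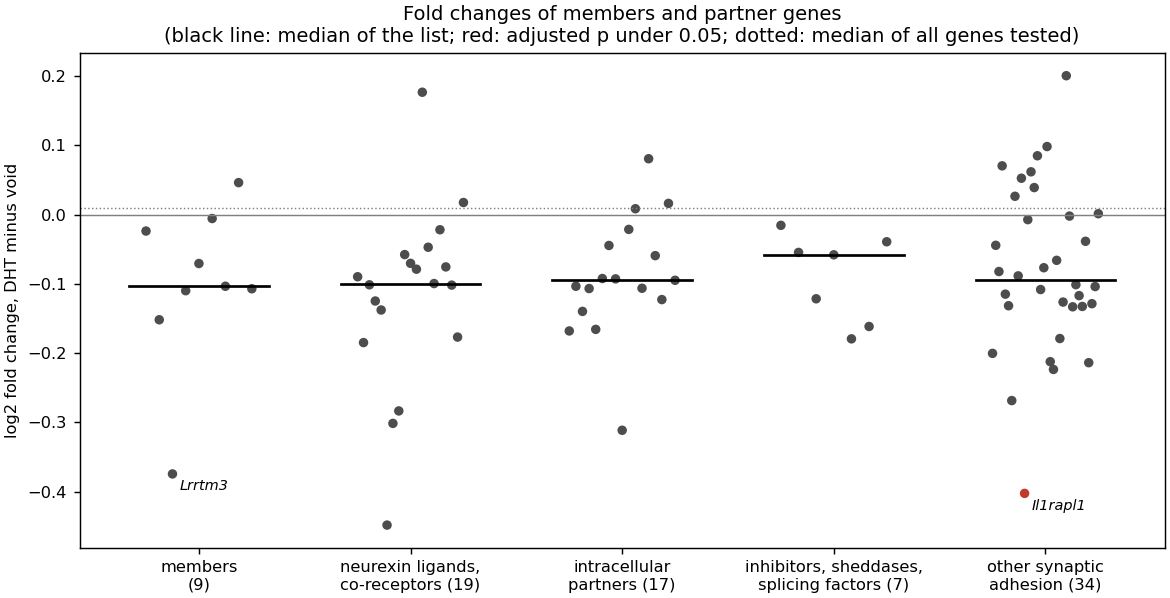
Log2 fold change (DHT minus void, vertical axis) of the 9 members and of 77 partner genes in 4 lists (horizontal axis, numbers of genes in brackets), 1 dot per gene, with the median of each list as a black line. The medians lie between -0.10 and -0.06, the median of all genes tested is 0.01 (dotted), and the 1 red dot is Il1rapl1.

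The 4 partner lists had similar medians. Of 19 neurexin ligands and co-receptors, 17 were negative (median -0.10) and 0 were called, with 1 higher at an unadjusted p under 0.05, Dag1 (dystroglycan, log2 fold change 0.18, edgeR, adjusted p = 0.245, named after its value was seen). Cbln4 and C1ql3, secreted bridges between neurexins and postsynaptic receptors, had log2 fold changes of -0.28 (standard error 0.27) and -0.14 (standard error 0.09), with adjusted p of 0.683 and 0.476 from edgeR. Without void mouse 5 the value of Cbln4 was 0.06. Of 17 intracellular partners, 14 were negative (median -0.09) and 0 were called, with 3 lower at an unadjusted p under 0.05. Cask, a scaffold on the neurexin tail, was at 102 ± 4.74 CPM with void and 94.9 ± 2.88 CPM with DHT, each with the SD over 5 mice, and had a log2 fold change of -0.11 (edgeR, adjusted p = 0.298). Dlg4 (PSD-95) and Gphn (gephyrin), scaffolds of excitatory and inhibitory synapses, had values of -0.04 and -0.09 (edgeR, adjusted p = 0.875 and 0.417). Of 7 inhibitors, sheddases and splicing factors, 7 were negative (median -0.06) and 0 were called. Mdga1 and Mdga2, which cover the neurexin site of neuroligins, had log2 fold changes of -0.18 and -0.16 (edgeR, adjusted p = 0.555 and 0.174). The value of Mdga1 was -0.29 without void mouse 5 and -0.49 with the choroid plexus covariate (edgeR, adjusted p = 0.107 and 0.610). Of 34 other synaptic adhesion genes, 25 were negative (median -0.09) and 1, Il1rapl1, was called.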

How the data were processed

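Hippocampal mRNA libraries, 1 per mouse, came from 5 void and 5 DHT females. The authors deposited raw counts per gene, made by trimming with HTStream and aligning with STAR 2.7.10b. The authors' methods name mm10, whereas the submitters' processing notes list mm39 and GRCm39. The annotation release and the handling of strand and of reads matching several genes are not given in the sources used here. Symbols, exon lengths, overlaps and GC content were taken from the GENCODE M21 reference: 51948 of 56884 entries matched, 51911 with a later version number, so no gene coordinates from it are given. There were 0 count columns without a sample.

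Groups were taken from the sample labels. In R 4.3.3, edgeR 4.0.16 was run on the counts with TMM scaling, its expression filter and the quasi-likelihood test, with Benjamini-Hochberg adjustment over 17622 genes. A gene was called at an adjusted p under 0.05. The standard error was taken as the size of the log2 fold change over the square root of its F. CPM used TMM library sizes. Ratios of counts (plus 0.5) within a mouse were compared by two-sided exact permutation over 252 splits. Log2 CPM for likeness used a prior count of 2. DESeq2 1.42.0, which the submitters list, was an alternative. Other alternatives were other scalings, filters and covariates and leaving out each mouse, and offsets for GC content and length were added after seeing the data. On counts simulated from edgeR's own fit, with known changes at or beyond a log2 value of 1, DESeq2 made a larger share of false calls than edgeR. That setting may favour edgeR and holds no change as small as that of Lrrtm3. It therefore cannot decide between the 2 tools for that gene.

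The members and gene lists were chosen with earlier results of these data known. Genes named are the 9 members, partner genes called, Dlg4, Gphn, Cask, Mdga1, Mdga2, Cbln4 and C1ql3. For the member of each family highest per kilobase of annotated exon, the most similar gene is named too. The alpha-catenins were added for their position. Total counts of 27188854 to 47113661 per library set the counting error, and p-values measure the spread between these mice.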

Additional observations from a re-analysis of the deposited data

How the results depend on the processing

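Of the alternatives to the edgeR test, 1 member (Lrrtm3) was called with DESeq2 and 1 without void mouse 9, and 0 in the others, so the members called ranged from 0 to 1 with single mice left out. Partner genes called numbered 3 with DESeq2 (Il1rapl1, Lin7a, Cadm1), 4 with GC and length offsets (Il1rapl1, Flrt1, Lin7a, Apba1), 0 with the choroid plexus or neuron covariate, and 0 to 2 with single mice left out. The share of all genes called under each alternative is not given here, so these counts have no background beside them. With scaling on neuron markers the 1 partner gene called was Dag1, higher with DHT. Members with a negative log2 fold change numbered 2 with scaling on neuron markers and 6 to 9 with single mice left out.

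Scaling on neuron markers moved the median of all genes from 0.01 to 0.16. Values that lay near 0 changed sign with that common shift, which says nothing of the single genes: Nrxn3 (0.037), Nlgn1 (0.075), Nlgn2 (0.13), Nlgn3 (0.043), Lrrtm1 (0.11), Lrrtm4 (0.038), Dlg4 (0.099), Gphn (0.052), Cask (0.041), C1ql3 (0.0031) and Ctnna2 (0.037). The choroid plexus covariate turned Nrxn2 (-0.0020), Lrrtm4 (0.059), Cbln4 (0.69) and Ctnna3 (-0.050). The neuron covariate turned Nlgn2 (0.19), Lrrtm1 (0.16), Dlg4 (0.095), Cbln4 (0.26) and C1ql3 (0.036). GC and length offsets turned Nrxn2 (-0.027) and Nlgn1 (0.041). With single mice left out, log2 fold changes ranged from -0.11 to 0.10 for Nrxn2, from -0.14 to 0.049 for Nlgn2, from -0.12 to 0.037 for Lrrtm1, from -0.44 to -0.30 for Lrrtm3, from -0.29 to -0.12 for Mdga1, from -0.24 to -0.10 for C1ql3, from -0.42 to 0.055 for Cbln4 and from -0.0048 to 0.18 for Ctnna3. The difference in log2 ratio ranged from -0.12 to 0.075 for Nlgn1 to Nlgn2, from -0.18 to -0.030 for Nrxn3 to Nrxn2 and from -0.016 to 0.21 for Lrrtm1 to Lrrtm2. No value that changed sign was past the threshold on either side, and the cause was not tested. Ctnna1 was called in 17 of 19 alternatives, and not with the choroid plexus covariate (0.27) or the neuron covariate (0.27). Ctnna2 was called with DESeq2 (-0.14).

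No paired analysis was possible because the sample labels give no litter or pair for a mouse. With 5 mice a group, the 95% interval of the log2 fold change was widest for Nrxn2 (-0.28 to 0.38) and narrowest for Nlgn1 (-0.19 to 0.05).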
